A study of Mus musculus with 4 samples.

Results

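The 34 genes described here encode proteins of the sarcomere, the contractile unit of striated muscle, and proteins that move calcium in muscle cells. They were chosen by symbol: troponins (6), myosins and a myosin-binding protein (7), actins and tropomyosins (5), Z-disc, M-band and scaffold proteins (11) and calcium-handling proteins (5). Each symbol was found once among the 32285 genes of the count tables. RNA of single cells was measured in 4 libraries of mouse embryos at E9.5, from the heart and the pharyngeal region. The cHet embryos were Tbx1Cre/+; Kmt2d F/+; GFP F/+, and carried a single floxed *Kmt2d* allele. The cKO embryos were Tbx1Cre/+; Kmt2d F/F; GFP F/+, with both alleles floxed. *Kmt2d* encodes a histone H3 lysine methyltransferase of enhancers. All embryos were labelled SwissWebster, an outbred stock, while the paper describes a mixed background of C57BL/6 and Swiss Webster after backcrossing to the latter. All carried Cre in place of 1 *Tbx1* allele, so that *Tbx1* was heterozygous in both groups. Live cells were sorted for GFP, which marks cells in which Cre had acted and their descendants, so that only heart cells of the *Tbx1* lineage were measured. Each genotype had 2 libraries, a pool of 4 embryos in replicate 1 (Rep1) and of 3 embryos in replicate 2 (Rep2), and the embryos of a pool could not be told apart. The paper gives somite counts, by which embryos are staged, for each pool. In both replicates the lowest count was higher in the cKO pool than in the cHet pool, and the ranges met or overlapped. Stage and genotype can therefore not be fully told apart. Levels were compared between the heart fields, cardiac muscle and other types, and between cHet and cKO.

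In a sarcomere, thick filaments of myosin pull on thin filaments of actin, and the troponin complex on tropomyosin permits this when calcium rises. Calcium leaves the sarcoplasmic reticulum through the ryanodine receptor and is pumped back by SERCA2, which phospholamban and sarcolipin restrain. Progenitors of the anterior and posterior second heart field (aSHF and pSHF) are added to the poles of the early heart tube and switch these genes on as they become muscle.

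The libraries held 179454146 to 234726019 unique molecular identifiers (UMIs, each standing for a captured transcript), and 5869 to 11938 cells per library were kept, with medians of 17240.5 to 22972 UMIs per cell. *Kmt2d* had 17.4, 15.2, 23.9 and 21.0 CPM (UMIs of a gene scaled to the same library total) over all cells. Here and below, values of the 4 libraries stand in the order cHet then cKO of Rep1, and then cHet then cKO of Rep2. Counts from the 3′ end of a transcript need not cover the floxed exons, so the genotype is not checked by these values. The count tables held 37093, 9307, 13192 and 16775 barcodes, all with 500 UMIs or more. For cHet Rep1 the paper lists far fewer cells, and for the other libraries the same numbers. The cells kept held 60.0% of the UMIs in cHet Rep1 and 86.1%, 91.6% and 89.8% in the other libraries. The libraries of Rep1 shared 87 cell barcodes and those of Rep2 shared 71. The replicates were made with different 10x kits, from different embryo pools, and their file headers give different Cell Ranger versions. These cannot be told apart. In cardiac muscle 4 of the 34 members (*Myl2*, *Actc1*, *Acta2* and *Ttn*) differed between replicates by more than 1 on the log2 scale, in the same direction in both genotypes, so genotypes were compared within replicates.

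Cells were grouped without the 34 members, so that their levels did not set the groups. A cluster of 637 cells was called cardiac muscle from 10 of 12 markers that are no members, among them the transcription factors *Nkx2-5*, *Gata4* and *Tbx20* and the natriuretic peptide *Nppa*. It held 138, 40, 218 and 241 cells. As a share of the cells of each library, with the exact 95% interval, that was 2.35% (1.98 to 2.77) in cHet Rep1, 0.636% (0.455 to 0.865) in cKO Rep1, 2.33% (2.04 to 2.66) in cHet Rep2 and 2.02% (1.77 to 2.29) in cKO Rep2, so cKO Rep1 stood apart with few muscle cells. The aSHF cluster (1679 cells) had 7 of 10 markers, among them *Isl1*, *Tnc* and *Hand2*. The markers *Tbx1*, *Fgf8* and *Fgf10* did not meet the rule there. Their means were 33.9, 14.1 and 57.2 CPM in aSHF, against 69.8, 16.6 and 42.4 CPM over all cells. The cardiac muscle cluster also met the marker rule for 7 of the 10 aSHF markers, and pSHF for 5. *Isl1* had a mean of 190 CPM in aSHF, against 285 in cardiac muscle and 201 in pSHF. The pSHF cluster (1418 cells) had 6 of 8, among them *Tbx5*, *Foxf1*, *Osr1* and *Aldh1a2*, and also met the marker rule for 6 of the 12 cardiac muscle markers. Intervals and detection floors cover counting error only. Levels between types are given as a description, without a test.

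In cardiac muscle the 34 members together made up 4.38, 5.21, 6.30 and 6.63 percent of all UMIs in the 4 libraries. There, 12 members had a mean above 1000 CPM, 28 were above 100 CPM and 30 above 10 CPM. Above 100 CPM stood 6 members in aSHF and 7 in pSHF. The median member was at 582 CPM in cardiac muscle, 3.86 CPM in aSHF and 8.397 CPM in pSHF. Of the 34 members, 32 were highest in cardiac muscle, and for 31 the range over the 4 libraries did not overlap that of the nearest other type. *Tpm2*, *Tnnt3* and *Sln* were the exceptions. The second type was pSHF for 16 members, aSHF for 8 and contractile mesenchyme for 4.

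**Figure D1:**
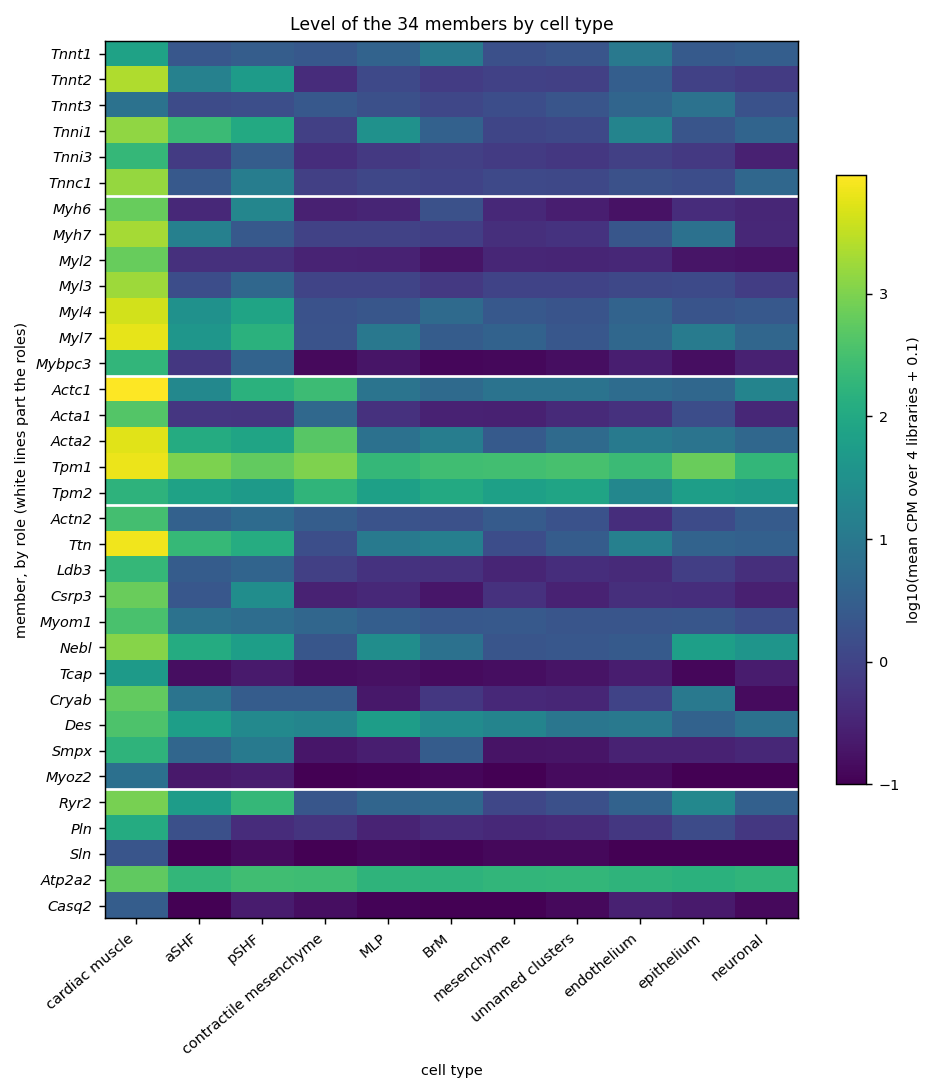
Mean CPM of each member (rows, by role) in each cell type (columns) on a log colour scale, over 4 libraries. Cardiac muscle holds the highest level for 32 of the 34 members, while *Tpm1*, *Tpm2* and *Atp2a2* are seen in every type.

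Among the troponins, which carry the calcium signal to tropomyosin, *Tnnt2* (cardiac troponin T) led with 2573, 3209, 1959 and 1939 CPM in cardiac muscle. *Tnnc1*, the calcium-binding troponin C of cardiac and slow muscle, had 1803, 2214, 969 and 1079 CPM, higher in Rep1. *Tnni1*, the slow skeletal troponin I that the embryonic heart uses, had 1115, 1498, 1433 and 1504 CPM. The adult cardiac form *Tnni3* had a mean of 201 CPM (SD 71.8, n = 4 libraries) and made up 8.48% to 19.1% of the UMIs of both troponin I genes, higher in Rep1 than in Rep2. *Tnnt1*, the slow skeletal troponin T, had a mean of 74.0 CPM (SD 17.99), and *Tnnt3*, the fast form, 7.39 CPM (SD 7.05), beside 7.44 CPM in epithelium.

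Both cardiac myosin heavy chains were present. *Myh7*, the beta chain, had 1537, 1227, 2526 and 2578 CPM, and *Myh6*, the alpha chain, had 510.3, 710.0, 776 and 648 CPM. They are neighbours on GRCm38 (*Myh6* at chr14:54941921-54966927, minus strand, and *Myh7* at chr14:54970684-54994626, minus strand), and each overlaps a microRNA gene on its own strand. *Myh6* took 24.9% (23.8 to 26.1) of the UMIs of both genes in cHet Rep1, 36.7% (34.6 to 38.8) in cKO Rep1, 23.5% (22.9 to 24.1) in cHet Rep2 and 20.1% (19.4 to 20.7) in cKO Rep2, with exact 95% intervals. The share was higher in cKO in Rep1 and lower in Rep2. In pSHF *Myh6* was the main form, with 79.9% to 96.9% of these UMIs.

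The atrial regulatory light chain *Myl7* had the most UMIs of the myosin genes, at 6699, 7812, 4985 and 5089 CPM. *Myl4*, the atrial and embryonic essential light chain, had 3778, 4768, 3965 and 4355 CPM, and *Myl3*, the ventricular essential light chain, had 1549, 1852, 1750.1 and 1981 CPM. *Myl2*, the ventricular regulatory light chain (chr5:122100951-122113472, plus strand), had 794, 1248, 222 and 374 CPM, higher in Rep1 than in Rep2 and higher in cKO in each. *Mybpc3*, the cardiac myosin-binding protein C, had a mean of 183 CPM (SD 9.67).

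Cardiac actin, *Actc1*, was the most abundant member on average, with 4526, 6445, 12399.7 and 13958 CPM. The smooth muscle actin *Acta2*, which early cardiomyocytes also express, had 3257, 3555, 7716 and 7714 CPM, and both were higher in Rep2. Skeletal actin, *Acta1*, had a mean of 434 CPM (SD 30.0). The actin proteins are close to identical, and how reads were shared out among their genes was not checked. The tropomyosin gene *Tpm1* had 5931, 7160.4, 6469 and 7207 CPM. *Tpm2* had 156, 195, 159.9 and 155 CPM in cardiac muscle and 227, 196, 171 and 128 CPM in contractile mesenchyme, and these ranges overlapped.

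*Ttn*, the gene of the giant spring protein titin (chr2:76703980-76982547, minus strand), had 4090.0, 3906, 11012 and 10555 CPM, parted by replicate and not by genotype. *Csrp3*, a muscle LIM protein of the Z-disc (chr7:48830398-48848033, minus strand), had 564, 874, 587 and 737 CPM. The mean was 1175 CPM for *Nebl* (nebulette), 590.4 for *Cryab* (a small heat-shock protein), 383 for *Des* (desmin), 357 for *Myom1* (myomesin of the M-band), 307 for *Actn2* (alpha-actinin), 202 for *Ldb3* (the Z-disc protein ZASP) and 169.5 for *Smpx* (a small muscle protein). *Tcap*, the titin cap, and *Myoz2*, a calcineurin-binding Z-disc protein, were low at 51.9 and 6.73 CPM.

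Among the calcium-handling members the ryanodine receptor *Ryr2* had 787, 799.6, 979.9 and 944 CPM. The SERCA2 gene *Atp2a2* had 537, 635, 589.9 and 534 CPM, and phospholamban, *Pln*, had 82.3, 98.1, 113 and 166 CPM. Sarcolipin (*Sln*) and calsequestrin 2 (*Casq2*), which stores calcium in the reticulum, had means of 1.90 and 2.79 CPM, and *Sln* rested on 0, 7, 2 and 3 UMIs.

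**Figure D2:**
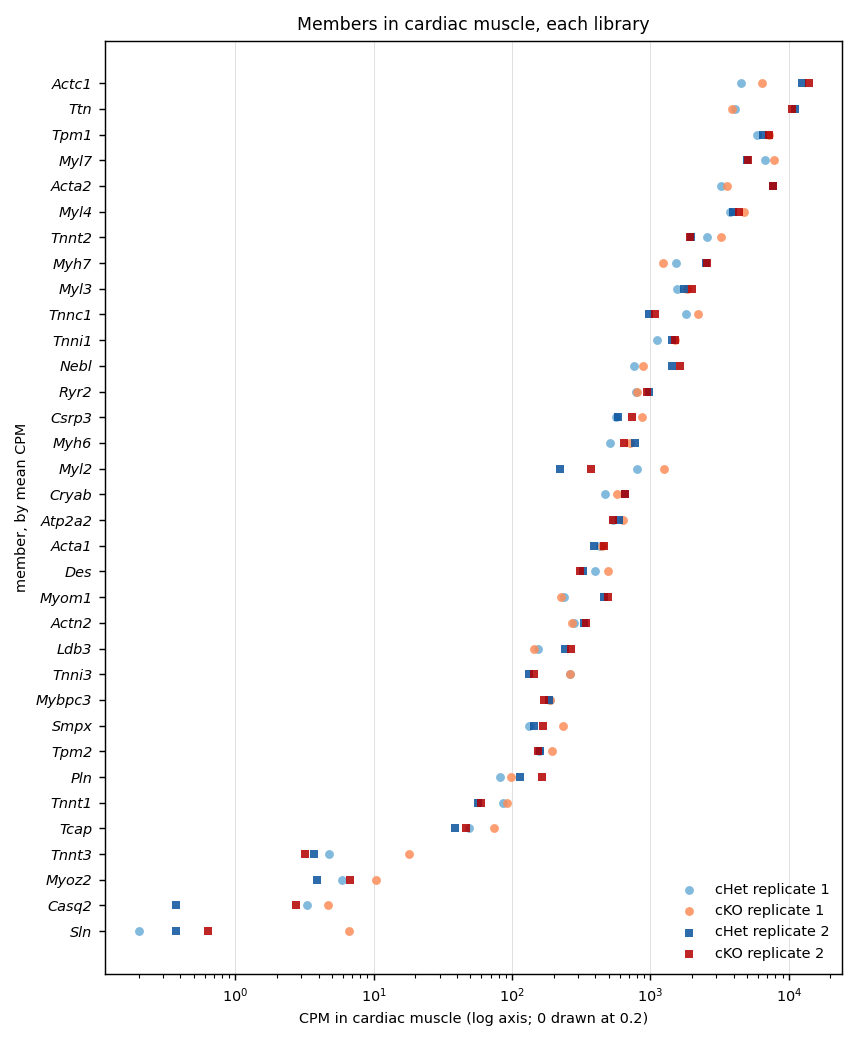
CPM of the members in cardiac muscle (log axis) in each of the 4 libraries, by genotype and replicate. *Actc1*, *Ttn* and *Acta2* part by replicate with Rep2 above Rep1, and *Myl2* parts the other way.

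The members share a cell type, and their promoters were therefore searched for motifs of muscle regulators. RefSeq (GRCm38.p6) gave 38 promoters for 29 members, each 250 bases before to 50 bases after a start, and none for *Atp2a2*, *Cryab*, *Sln*, *Tcap* and *Tnnt3*. A CArG box, the motif of serum response factor, was found in 21.1% of the members' promoters and in 1.63% of 32851 mouse promoters. The MEF2 box was found in 10.5% of them and in 3.19% of all promoters. The shares were 18.4% and 11.2% for AGATAA, which GATA factors bind. They were 28.9% and 14.7% for CATTCC, the MCAT motif that TEAD factors bind. For the motif TATAAA of the basal machinery they were 15.8% and 13.6%. Both strands were searched, and a stretch could count for more than 1 motif. Only exact matches were counted, to CCWWWWWWGG for the CArG box and YTAWWWWTAR for the MEF2 box. In these, W is A or T, Y is C or T and R is A or G. A stretch that differed from the CArG letters by 1 base, as in *Acta2*, was not counted. A CArG box was found for 7 members (*Acta1*, *Actc1*, *Ldb3*, *Myl3*, *Myl7*, *Myom1* and *Nebl*), with the box of *Ldb3* counted in both of its overlapping promoters, and a MEF2 box for 4 (*Casq2*, *Mybpc3*, *Myoz2* and *Ttn*). A match describes the letters only. The promoters of 4 of the most abundant members with a box are shown 5′ to 3′, with the CArG box in capitals in *Actc1* (chr2:114052826-114053125, minus strand), *Myl7* (chr11:5898733-5899032, minus strand) and *Myl3* (chr9:110763428-110763727, plus strand) and the MEF2 box in *Ttn* (chr2:76982498-76982797, minus strand).
Actc1: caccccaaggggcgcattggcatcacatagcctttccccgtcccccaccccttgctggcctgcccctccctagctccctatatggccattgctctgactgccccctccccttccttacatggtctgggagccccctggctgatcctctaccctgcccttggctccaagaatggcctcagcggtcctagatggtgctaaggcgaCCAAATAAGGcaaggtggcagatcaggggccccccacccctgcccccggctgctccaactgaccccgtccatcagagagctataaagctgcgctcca
Myl7: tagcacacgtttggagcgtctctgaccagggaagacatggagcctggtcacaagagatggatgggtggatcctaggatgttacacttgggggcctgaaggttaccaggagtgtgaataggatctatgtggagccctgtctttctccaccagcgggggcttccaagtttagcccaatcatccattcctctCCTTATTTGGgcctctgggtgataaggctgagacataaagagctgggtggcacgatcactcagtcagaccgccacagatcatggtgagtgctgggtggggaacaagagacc
Myl3: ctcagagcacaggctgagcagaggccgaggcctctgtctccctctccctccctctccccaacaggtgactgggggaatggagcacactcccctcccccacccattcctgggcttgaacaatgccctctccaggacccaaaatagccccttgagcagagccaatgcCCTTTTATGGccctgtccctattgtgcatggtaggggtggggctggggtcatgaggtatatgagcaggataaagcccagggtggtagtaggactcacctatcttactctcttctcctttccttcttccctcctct
Ttn: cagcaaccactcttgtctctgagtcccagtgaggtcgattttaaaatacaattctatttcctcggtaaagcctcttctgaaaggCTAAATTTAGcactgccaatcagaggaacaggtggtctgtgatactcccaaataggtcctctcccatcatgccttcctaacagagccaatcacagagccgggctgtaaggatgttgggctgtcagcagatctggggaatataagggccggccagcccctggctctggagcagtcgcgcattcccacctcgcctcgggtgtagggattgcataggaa

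Outside muscle most members were near 0. Epithelium, endothelium and neuronal cells were pooled as non-muscle types, to measure the level that free RNA and stray counts give. Of the 28 members at 100 CPM or more in cardiac muscle, 8 stood below 0.1% of their cardiac muscle level in these types, 14 between 0.1% and 1% and 6 at 1% or more. The median was 0.180%, and it lay between 0.191% and 0.208% in each library taken alone.

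The lowest were *Myl2* at 0.0236%, *Myh6* at 0.0347% and *Csrp3* at 0.0486%. *Myl2* rested on 7, 0, 2 and 10 UMIs in these types, *Myh6* on 9, 3, 5 and 9 and *Csrp3* on 12, 1, 13 and 13. At the other end stood 3 genes that are also used outside striated muscle, *Atp2a2* at 28.2%, *Tpm2* at 25.8% and *Tpm1* at 6.25%. In the non-muscle types *Atp2a2* had 118, 119.8, 210.0 and 199 CPM, higher in Rep2. *Tpm2* had 60.7, 43.3, 38.0 and 30.0 CPM and *Tpm1* had 423, 368, 424 and 457 CPM.

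The level of some members differed among the non-muscle types. *Nebl* had 62.7 CPM in epithelium (SD 15.8), 39.7 in neuronal cells (SD 24.02) and 2.50 in endothelium (SD 1.35). With each cell thinned to 5000 UMIs, it was seen in 22.6% of epithelial, 1.68% of endothelial and 94.3% of cardiac muscle cells. *Ryr2* had 20.7 CPM in epithelium and 3.58 in endothelium, *Cryab* 10.1 and 0.910, and *Tnni1* 1.95 and 17.1, the only 1 of these higher in endothelium. Outside these types, *Des* had 57.4 CPM in multilineage primed progenitors (MLPs) and 24.9 in branchiomeric muscle progenitors (BrM). In contractile mesenchyme, which carried the smooth muscle markers *Tagln* and *Cnn1*, *Actc1* had 111, 126, 509.9 and 274 CPM and *Acta2* 343, 265, 876 and 451 CPM.

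Near-empty barcodes, with 500 to 1000 UMIs, carried more of most members. They numbered 6324, 573, 1628 and 1999 in the 4 libraries. Outside cHet Rep1 they were among the barcodes that the paper counts as cells. Erythroid markers summed to 262, 1900, 5.42 and 12.6 CPM in them, so their make-up differed between replicates and between the libraries of Rep1. How far these barcodes hold free RNA or damaged cells was not tested. Over the same 28 members their median was 1.28% of the cardiac muscle level, and it was 1.78%, 1.78%, 0.858% and 0.724% in the 4 libraries. *Tnnt2* had 39.1, 100.5, 12.6 and 8.88 CPM in them and 1.92, 0.309, 0.564 and 0.487 CPM in epithelium. *Atp2a2*, *Nebl* and *Pln* went the other way, at 28.2%, 3.02% and 0.751% in the non-muscle types against 10.7%, 1.97% and 0.505% in near-empty barcodes, and *Ryr2* was alike in both (1.26% and 1.24%).

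**Figure D3:**
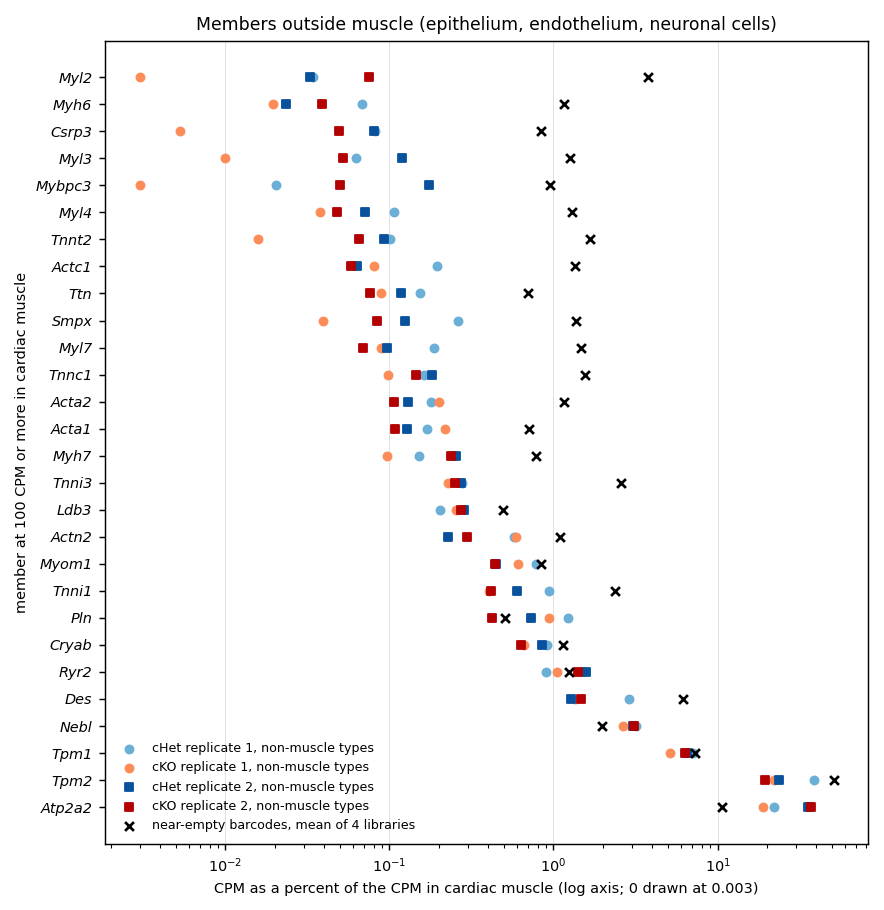
CPM in the non-muscle types as a percent of the CPM in cardiac muscle (log axis) for the 28 members at 100 CPM or more in cardiac muscle, with the 4 libraries and the near-empty barcodes as points. *Atp2a2*, *Tpm2* and *Tpm1* stand apart at the high end, and the median member lies at 0.180%.

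Both heart fields held members of the programme, at different levels. In aSHF *Ttn* had 81.3, 57.3, 395 and 316 CPM and *Tnni1* 233, 206, 265 and 260.4 CPM. In pSHF the mean was 119 CPM for *Ttn*, whose ranges overlapped between the fields, and 105 CPM for *Tnni1*, whose ranges did not. *Nebl*, *Acta2* and *Des* had means of 114, 116 and 62.2 CPM in aSHF and 61.5, 79.0 and 21.5 CPM in pSHF, and of these only *Des* did not overlap. At 5000 UMIs a cell, *Tnni1* was seen in 63.1% of aSHF and 0.851% of epithelial cells, and *Ttn* in 34.5% and 1.87%. *Ryr2* had 114, 214, 195 and 284 CPM in pSHF, where it was seen in 31.5% of cells, and a mean of 54.7 CPM in aSHF. *Actc1*, *Myl7* and *Myl4* had means of 146, 148 and 80.7 CPM in pSHF and 20.3, 40.4 and 32.3 CPM in aSHF, and *Myl4* overlapped between the fields. *Csrp3* had 27.5 CPM in pSHF and 2.17 in aSHF, and *Myh6* 19.1 and 0.266. *Sln* and *Casq2* had no UMI in aSHF, where 3 counts over the 4 libraries would be 0.0857 CPM.

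In cardiac muscle 2 of 33 members tested differed between genotypes, both higher in cKO, where 0.0926% of 11877 genes were called (0.0758% higher in cKO). *Myl2* rose by 0.76 on the log2 scale (SE 0.10, edgeR adjusted p = 3.14e-04), by 0.71 in Rep1 and 0.81 in Rep2. *Csrp3* rose by 0.53 (SE 0.11, adjusted p = 0.0442), by 0.69 in Rep1 and 0.38 in Rep2. By the values above, both cKO libraries exceeded both cHet libraries for *Csrp3*, and for *Myl2* they did so only within replicates. An unadjusted p under 0.05 was reached by 15 members and by 4.87% of all genes, with *Actc1* nearest to the threshold (0.40, SE 0.08, adjusted p = 0.0728). DESeq2 called *Myl2* and no other gene. The call of *Csrp3* was lost in 7 of 8 other settings, with log2 fold changes of 0.45 to 0.64 over all 8. No member was called when cells with at least 1000 genes were kept. Here and in pSHF, aSHF and BrM, no member was called when the replicate was left out of the model. Fits that left out 1 library had no replicate term and a single library in 1 genotype. The difference between the replicates entered them, so only the size of their values is given. In these fits *Myl2* ran from -0.59 (without cKO replicate 1) to 2.12 (without cHet replicate 1), and *Csrp3* from 0.28 (without cKO replicate 1) to 0.78 (without cKO replicate 2).

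Of the 33 members tested, 30 had a positive log2 fold change, with a median of 0.20 against 0.00 over all genes. By log2 CPM after TMM scaling of the library totals, 24 were higher in cKO in both replicates, which held for 26.7% of all genes. Here and below, such counts of members and the log2 fold changes per replicate use this scale. By the unscaled CPM printed above, some of the 24, such as *Acta2* and *Tpm2*, were lower in cKO in Rep2. The median log2 fold change was 0.33 in Rep1, where cKO had 40 cells, and 0.15 in Rep2. By role it was 0.24 for the troponins, 0.18 for the thick filament, 0.20 for actins and tropomyosins, 0.20 for Z-disc and scaffold genes and 0.29 for the 4 calcium-handling genes tested. *Ttn* (-0.01, SE 0.08), *Ryr2* (0.04, SE 0.10) and *Myh7* (-0.09, SE 0.10) lay near 0. Cardiac muscle markers summed to 2600.2, 2664, 3157 and 3207 CPM, and of these the natriuretic peptide *Nppb* was called higher in cKO (52.5, 99.0, 23.2 and 49.5 CPM, log2 fold change 1.07, edgeR adjusted p = 0.00148). Neuronal markers were low but higher in cKO (9.19, 40.5, 8.16 and 14.2 CPM), with 4 of 7 higher in both replicates. Sums were lower in cKO in each replicate for epithelial markers (292, 178, 254 and 208 CPM, 0 of 6 higher in both), and likewise for mesenchyme (331, 264, 240.0 and 233 CPM), endothelial (38.2, 18.9, 54.9 and 52.9 CPM) and neural crest markers (19.8, 8.49, 9.83 and 8.04 CPM). The part of these lists in the result was not tested. Of 23 other sarcomere genes tested, *Mylpf*, a fast skeletal light chain, was called (45.6, 131, 28.6 and 39.5 CPM, 1.02, SE 0.19, adjusted p = 0.0300), and of 23 other calcium-handling genes, 16 smooth muscle and non-muscle contractile genes and 14 cardiac transcription factors none was by edgeR, with 2, 1 and 1 at an unadjusted p under 0.05.

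**Figure D4:**
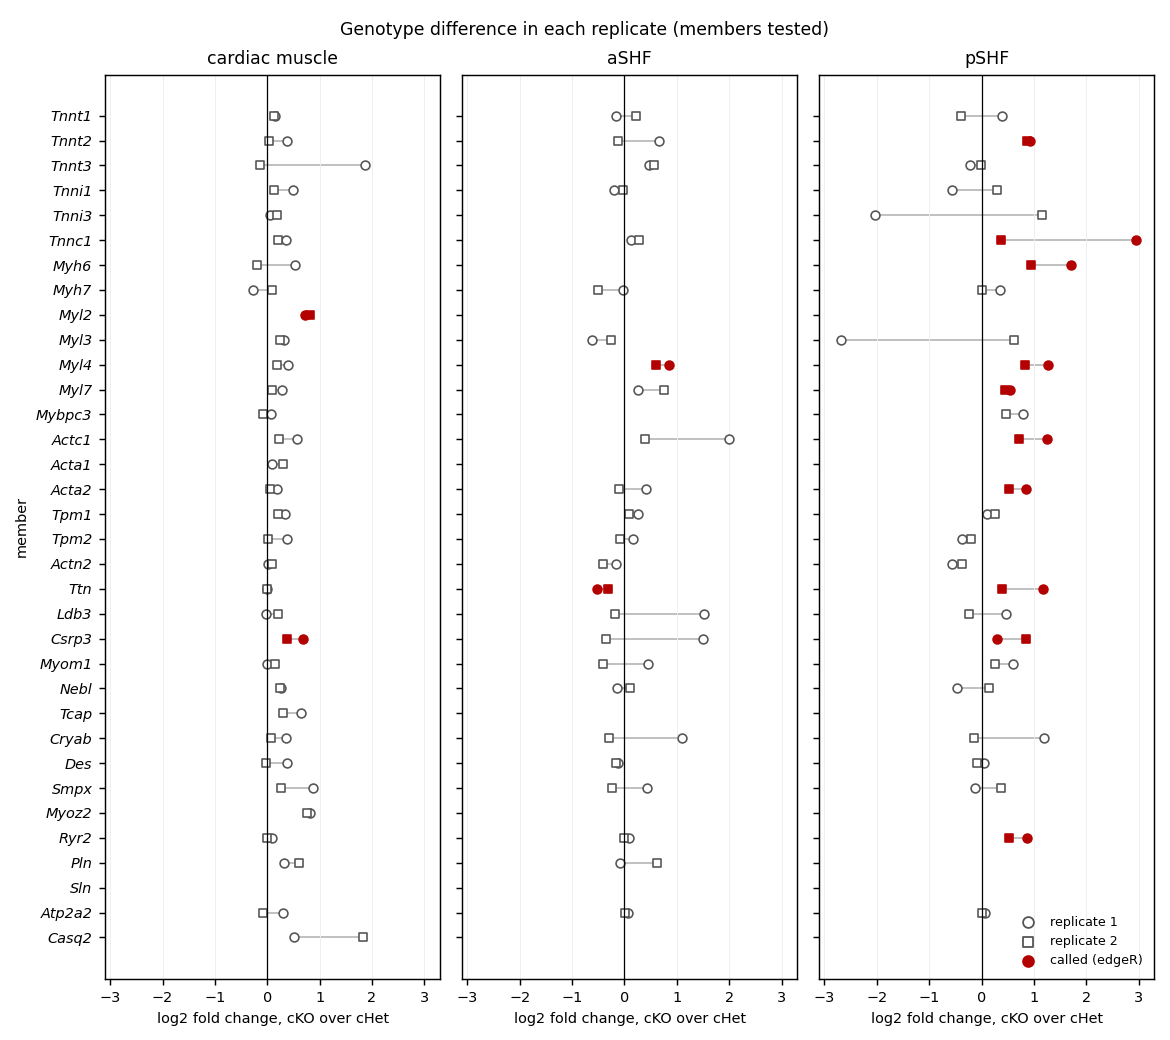
Log2 fold change of cKO over cHet in each replicate for the members tested, by cell type. In pSHF the 10 members called by edgeR lie right of 0 in both replicates.

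In pSHF 10 of the 27 members tested differed between genotypes, all higher in cKO, where 0.571% of 12953 genes were called (0.502% higher in cKO). They were the thin filament genes *Tnnt2*, *Tnnc1*, *Actc1* and *Acta2*, the myosin genes *Myh6*, *Myl4* and *Myl7*, *Ttn*, *Csrp3* and the calcium release channel *Ryr2*. The median over the 27 members was 0.20, against -0.01 over all genes, and 15 were higher in cKO in both replicates, which held for 24.8% of all genes. DESeq2 called 4 of the 10 and gave no adjusted p for 3 others (*Csrp3*, *Myh6* and *Tnnc1*), edgeR with doublets kept called 4, and 6 remained when each cell was thinned to 5000 UMIs. The somite stage of the pools, named at the start, was not a term in the model, and its part was not tested.

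*Myl4* had 41.8, 103, 63.9 and 114 CPM, so that both cKO libraries exceeded both cHet libraries, and rose by 1.01 on the log2 scale (SE 0.10, edgeR adjusted p = 1.55e-06). *Tnnt2* had 38.7, 75.3, 34.7 and 64.3 CPM, also without overlap, and rose by 0.91 (SE 0.10, adjusted p = 8.88e-06). *Actc1* had 48.6, 118, 159 and 261 CPM and rose by 0.91 (SE 0.09, adjusted p = 2.89e-06). For *Actc1* cKO Rep1 was below cHet Rep2, and cKO was higher within each replicate.

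*Ryr2*, with the values given above and both cKO libraries on top, rose by 0.68 (SE 0.08, edgeR adjusted p = 1.41e-05). *Myh6* had 6.63, 22.5, 15.98 and 31.2 CPM and rose by 1.20 (SE 0.17, adjusted p = 2.68e-04), again without overlap. *Acta2* had 36.9, 67.8, 86.8 and 125 CPM (0.64, SE 0.09, adjusted p = 3.76e-04) and *Myl7* had 156, 232, 86.1 and 118 CPM (0.49, SE 0.07, adjusted p = 4.67e-04). These last genes overlapped between genotypes across the replicates and not within them.

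*Ttn* had 31.1, 71.1, 161 and 213 CPM (0.64, SE 0.11, adjusted p = 0.00249) and *Csrp3* had 17.5, 21.8, 25.1 and 45.6 CPM (0.67, SE 0.14, adjusted p = 0.0152). *Tnnc1* had 3.40, 28.1, 7.85 and 10.3 CPM on 20, 116, 82 and 101 UMIs (1.42, SE 0.32, adjusted p = 0.0364), and its rise was 2.95 in Rep1 and 0.38 in Rep2. Few cells carried such values. In Rep1 the top 5% of pSHF cells (13 of 259 in cHet, 8 of 161 in cKO) held 100% and 94.8% of the *Tnnc1* UMIs. They held 93.1% and 87.6% of those of *Myl4*, and 92.3% and 90.8% of those of *Actc1*. Partners in the same complexes were not called: *Tnni1* had 104, 71.6, 109 and 135 CPM (-0.05, SE 0.12) and *Myl3* 4.25, 0.484, 5.17 and 8.16 CPM (-0.01, SE 0.40), each lower in cKO in Rep1 and higher in Rep2. *Tpm2* had 66.8, 52.0, 43.9 and 38.4 CPM (-0.28, SE 0.10, adjusted p = 0.490) and *Actn2* 5.78, 3.87, 6.51 and 5.00 CPM (-0.46, SE 0.28, adjusted p = 0.954), and like *Tnnt3* both were lower in cKO in each replicate without a call.

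Fits that left out 1 library had no replicate term, so the difference between the replicates entered their values. In these fits the direction in pSHF turned for *Myl7*, from -0.28 (without cKO replicate 1) to 1.25 (without cHet replicate 1). It also turned for *Ttn*, which was -0.17 without cKO replicate 2, -0.08 without cHet replicate 1 and 1.93 without cHet replicate 2. By the values above, both genes were higher in cKO within each replicate. The other 8 members called kept a positive value. Of these *Myl4* ran from 0.94 to 1.18 and *Ryr2* from 0.51 to 0.91, while *Actc1* ran from 0.37 (without cHet replicate 1) to 1.72 (without cHet replicate 2), *Acta2* from 0.28 to 1.15 without the same libraries, and *Csrp3* from 0.21 (without cKO replicate 2) to 0.94 (without cKO replicate 1). *Tnnc1* ran from 0.72 (without cKO replicate 1) to 2.49 (without cKO replicate 2), *Myh6* from 0.91 to 1.81 (without cHet replicate 2) and *Tnnt2* from 0.61 to 1.20.

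To describe how these transcripts were spread over pSHF cells, cells with a UMI for at least 3 of 10 members after thinning to 5000 UMIs were counted as muscle-bearing. The 10 were *Tnnt2*, *Tnni1*, *Tnnc1*, *Myh7*, *Myl3*, *Myl4*, *Myl7*, *Actc1*, *Acta2* and *Ttn*, set by a level of 1000 CPM or more in cardiac muscle and under 1% of it in non-muscle types, and the rule was chosen after the values were seen. In pSHF 18 of 259 cells of cHet Rep1 were muscle-bearing (6.95%, exact 95% interval 4.17 to 10.8), 15 of 161 of cKO Rep1 (9.32%, 5.31 to 14.9), 39 of 460 of cHet Rep2 (8.48%, 6.10 to 11.4) and 77 of 538 of cKO Rep2 (14.3%, 11.5 to 17.6). The share was higher in cKO in each replicate at this minimum, and the intervals overlapped in Rep1 and not in Rep2. They cover the counting of cells in 1 pool per genotype and replicate, so whether they overlap is no test of the genotype. Of the 10 genes 7 were themselves called higher in cKO in pSHF, so this share largely restates those calls. The direction in Rep1 turned with a minimum of 2 genes, where the shares were 19.7, 16.8, 18.7 and 21.4 percent in the 4 libraries, so that cKO was lower in Rep1 and higher in Rep2. With a minimum of 4 genes they were 5.02, 7.45, 5.65 and 8.74 percent, and cKO was higher in both. At either of these minimums the intervals overlapped in both replicates. The class is a cut through a range of counts and was not named as a cell type. In pSHF 33, 12, 47 and 38 cells had exactly 2 of the 10 genes and 5, 3, 13 and 30 had exactly 3. Cardiac muscle markers, which are no members, had a median of 1392, 1094, 1666 and 1795 CPM per muscle-bearing pSHF cell. In the other pSHF cells it was 71.7, 53.5, 65.7 and 77.8 CPM. The medians of pSHF and aSHF markers were also higher in muscle-bearing pSHF cells in each library. With the minimum of 3 genes, 5, 0, 1 and 0 cells passed in epithelium (at most 1.114%), 7, 0, 6 and 5 in endothelium (at most 1.602%) and 2, 0, 9 and 6 in contractile mesenchyme (at most 1.996%).

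The 10 genes that set the class are high in its cells by construction, so only *Myh6*, *Csrp3* and *Ryr2*, the members called in pSHF that were not among the 10, are given within it. Muscle-bearing cells held 92.3% to 100% of the *Myh6* UMIs of pSHF and 90.3% to 100% of those of *Csrp3*. Within these cells *Myh6* had 106, 285, 204 and 245 CPM, *Csrp3* 273, 276, 318 and 351 CPM and *Ryr2* 876, 1467, 1018 and 1114 CPM. These values rest on few cells: *Myh6* had a UMI in 11, 6, 13 and 24 pSHF cells and *Csrp3* in 21, 12, 22 and 47. All 3 members were chosen for their calls in pSHF, so their direction within these cells follows in part from that choice and is no further evidence on the level per cell.

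*Ryr2* was spread more widely, with 40.3% to 54.2% of its UMIs in muscle-bearing cells. In the other pSHF cells it had 67.6, 106, 127 and 163 CPM. In the sum over pSHF, more muscle-bearing cells and more RNA per cell cannot be told apart. Cardiac muscle markers in pSHF summed to 255, 296, 368 and 472 CPM, with 6 of 12 higher in cKO in both replicates, while *Nppa* and *Nppb* were at 0.170 CPM or less. Markers of pSHF itself summed to 724, 862, 1233 and 1349 CPM, with 4 of 8 higher in cKO in both replicates. Sums were also higher in cKO in each replicate for neuronal (18.7, 24.9, 22.3 and 26.0 CPM, 3 of 7 higher in both), BrM (75.8, 77.0, 105 and 133 CPM, 2 of 8) and MLP markers (60.8, 64.9, 83.7 and 85.8 CPM, 3 of 6). The sums of the other lists changed direction between replicates. The part of these lists in the result was not tested.

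**Figure D5:**
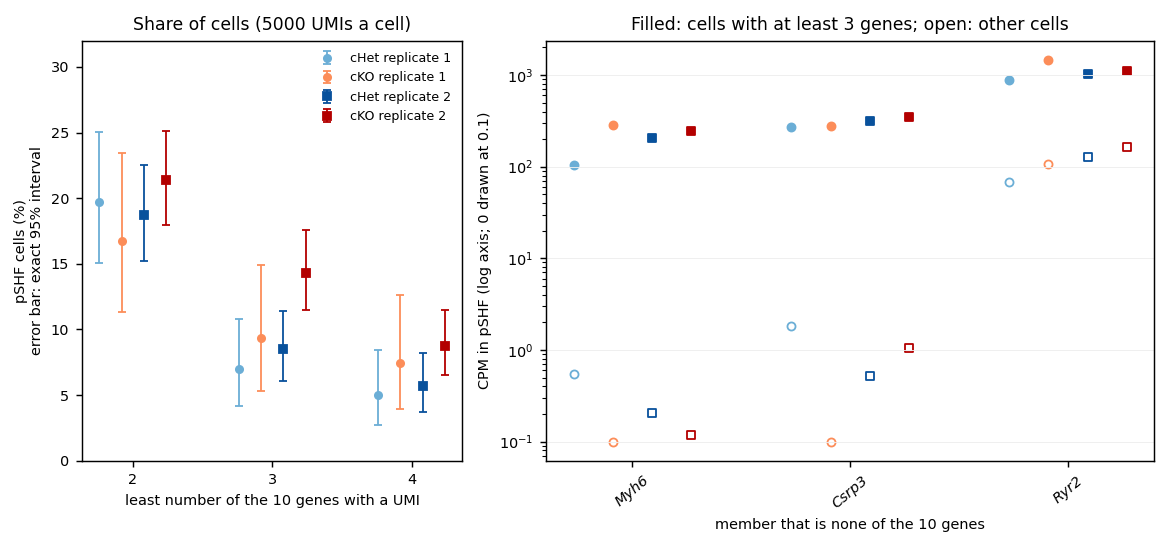
Left, percent of pSHF cells with a UMI for at least 2, 3 or 4 of the 10 genes, by library, with exact 95% intervals. Right, CPM (log axis) of 3 members outside the 10 in cells with at least 3 genes (filled) and in other pSHF cells (open). The share in Rep1 is higher in cKO at a minimum of 3 or 4 genes and lower at 2.

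Other genes of the pathway were called in pSHF as well, where 0.571% of all genes were called and 0.502% were called higher in cKO. Of 21 other calcium-handling genes tested, 2 rose in cKO, the sodium-calcium exchanger *Slc8a1* (118, 181, 163 and 243 CPM, 0.58, SE 0.07, adjusted p = 2.42e-05, edgeR) and the L-type calcium channel *Cacna1d* (41.8, 63.6, 62.8 and 107 CPM, 0.69, SE 0.09, adjusted p = 1.15e-04). Of 16 other sarcomere genes, *Ankrd1*, a titin-binding protein, rose (2.55, 21.8, 4.69 and 9.90 CPM, 1.85, SE 0.30, adjusted p = 0.00121). Of 14 cardiac transcription factors, *Gata4* (55.4, 87.6, 91.4 and 114 CPM, 0.44, SE 0.09, adjusted p = 0.0152) and *Tbx20* (36.4, 49.9, 46.7 and 69.7 CPM, 0.52, SE 0.10, adjusted p = 0.0108) rose. Of 14 smooth muscle and non-muscle contractile genes none was called by edgeR, with 2 at an unadjusted p under 0.05.

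In aSHF 2 of 25 members tested were called, in opposite directions, where 0.219% of 13259 genes were called. *Myl4* had 18.4, 33.9, 30.4 and 46.3 CPM and rose by 0.72 (SE 0.12, edgeR adjusted p = 0.00452). *Ttn*, with the values given above, fell by 0.39 (SE 0.08, adjusted p = 0.0261), lower in cKO within each replicate. *Actc1* (3.18, 13.4, 28.0 and 36.8 CPM, adjusted p = 0.202) and *Myl7* (45.3, 54.9, 22.9 and 38.7 CPM, adjusted p = 0.140) were higher in cKO within each replicate and did not pass. With cells of at least 1000 genes kept, the *Myl4* value was -0.37, and each call was lost in other settings as well: no member was called by DESeq2 or with cells thinned to 5000 UMIs. On leaving out 1 library, and with it the replicate term, *Ttn* ran from -1.79 (without cKO replicate 2) to 0.91 (without cHet replicate 2). Markers of pSHF summed to 139, 199.8, 193 and 224 CPM in aSHF, with 5 of 8 higher in cKO in both replicates, and epithelial markers to 179.7, 247, 133 and 162 CPM, with 2 of 6. Epicardium markers summed to 75.1, 93.2, 137 and 188 CPM, with 4 of 5 higher in cKO in both replicates. The part of these lists in the result was not tested. Cells that met the muscle-bearing rule made up 9.29, 8.22, 25 and 21.5 percent of aSHF, lower in cKO in each replicate. The direction in Rep1 turned at a minimum of 4 genes (2.69, 3.42, 12.6 and 8.96 percent). In these aSHF cells at the minimum of 3 genes, *Myh6* had 1.20, 0, 0.440 and 0.469 CPM and *Csrp3* 1.20, 18.6, 4.85 and 5.16 CPM. Both were far lower than in the muscle-bearing cells of pSHF, so the shares of the fields do not count like cells. Of the other lists, *Gata4* rose (10.1, 23.5, 19.0 and 35.2 CPM, 1.01, SE 0.13, adjusted p = 0.00168), *Myocd*, a coactivator of serum response factor, fell by 0.70 (36.7, 17.3, 102 and 71.5 CPM, SE 0.11, adjusted p = 0.00460), and the smooth muscle gene *Tagln* rose (73.3, 116, 137 and 161 CPM, 0.42, SE 0.09, adjusted p = 0.0443).

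In BrM, the progenitors of jaw and face muscles, 1 of 23 members tested was called, where 0.977% of 14637 genes were called. *Tpm2* had 153, 121, 85.03 and 65.5 CPM and fell by 0.33 (SE 0.07, edgeR adjusted p = 0.0398), lower in cKO within each replicate, with Rep1 above Rep2. *Des* had 32.4, 26.2, 25.5 and 15.5 CPM (adjusted p = 0.0608). The member median was -0.25 against 0.01 for all genes, and 10 of the 23 were lower in cKO in both replicates, which held for 24.1% of all genes. The call of *Tpm2* was lost with DESeq2. In fits without 1 library, which had no replicate term, its value turned to 0.38 without cHet replicate 1 and to 0.15 without cKO replicate 2. Mesenchyme markers in BrM summed to 362, 244, 282 and 239 CPM, contractile mesenchyme markers to 35.5, 28.6, 37.5 and 28.9 CPM and endothelial markers to 21.1, 11.3, 19.0 and 14.5 CPM, each lower in cKO in each replicate, and markers of BrM itself to 397, 483, 634 and 804 CPM, with 6 of 8 higher in cKO in both. Epithelial (11.5, 13.1, 7.06 and 9.60 CPM), erythroid (11.5, 27.3, 2.13 and 7.08 CPM) and epicardium markers (93.1, 103, 174 and 251 CPM) were also higher in cKO in each replicate, with 4 of 6, 3 of 5 and 2 of 5 higher in both. The part of these lists in the result was not tested. Of the other lists, *Flnc*, the muscle filamin, was called (4.48, 3.12, 10.8 and 4.88 CPM, -0.92, SE 0.19, adjusted p = 0.0221).

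Over all cells kept edgeR called 0 of 33 members and 0% of 20126 genes, while 19 members and 5.66% of all genes had an unadjusted p under 0.05. DESeq2 called 2 members, *Des* and *Myh6*, and 66 genes in all. Here 32 of the 33 had a negative log2 fold change, with a median of -0.54, and 25 were lower in cKO in both replicates, which held for 21% of all genes. The median was -0.99 in Rep1, where cardiac muscle was 0.636% of cKO and 2.35% of cHet cells, and -0.07 in Rep2, where it was 2.02% and 2.33%. Fewer cardiac muscle cells and less RNA per cell cannot be told apart in such a sum, and within cardiac muscle the median was 0.20. *Myh6* had 11.7, 5.75, 21.9 and 16.4 CPM over all cells and *Des* 33.4, 21.0, 28.1 and 21.7 CPM, both lower in cKO in each replicate.

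Whether the genotype difference itself differed between types was tested by an interaction. Between cardiac muscle and aSHF 3 of 33 members were called (0.244% of 13542 genes). The log2 fold change in cardiac muscle less that in aSHF was 0.39 for *Tnni1* (SE 0.09, edgeR adjusted p = 0.0147), 0.39 for *Ttn* (SE 0.08, adjusted p = 9.70e-04) and -0.46 for *Myl4* (SE 0.10, adjusted p = 0.00310). *Tnni1* was called in neither type alone. All 3 calls were lost with DESeq2, with cells thinned to 5000 UMIs and without the replicate as a term. With cells of at least 1000 genes kept, the *Myl4* difference was 0.80 and was called in that direction (edgeR adjusted p = 0.0238). The same test was added for pSHF against each of the other types after the pSHF calls were seen, and was not repeated under the other settings. Between cardiac muscle and pSHF 10 of 33 members were called (0.762% of 13121 genes), and 9 of them had the larger rise in pSHF, from -0.32 for *Myl7* to -1.18 for *Myh6*. *Tnni1* went the other way (0.29, SE 0.08, adjusted p = 0.0478). Of the 10 members called in pSHF, *Csrp3* had no such call. Between pSHF and aSHF 4 of 28 members were called (0.509% of 13941 genes), each with the higher value in pSHF: *Ttn* (0.95, SE 0.08), *Ryr2* (0.64, SE 0.09), *Acta2* (0.56, SE 0.10) and *Tnnt2* (0.67, SE 0.17). *Myl4*, called in both fields, gave a difference of 0.28 (SE 0.12, adjusted p = 0.716).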

How the data were processed

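Single-cell RNA was measured in 4 10x libraries. The authors deposited raw UMI counts per gene and barcode, with Cell Ranger (version 7.0.1 in the file headers of Rep1, version 8.0.1 in those of Rep2) on mm10 per the submitters' processing notes. Whether intronic reads were counted is not given in the sources used here, and the kits differed between replicates.

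Cells with at least 3000 genes, at most 10% mitochondrial and 5% hemoglobin UMIs were kept, and doublets were removed by Scrublet score at the share each kit predicts, since the automatic threshold marked under 0.5% of cells in both Rep1 libraries. Replicates were aligned, and cells were clustered (scanpy 1.11.5, Leiden resolution 0.8, 2000 variable genes, 30 components) without the 34 members. Of 20 clusters 14 were named, each from at least 3 markers, and 6 (13172 of 33448 cells) were not.

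UMIs were summed per library and type, given as CPM, and tested with edgeR 4.0.16 (quasi-likelihood, TMM, filterByExpr, replicate and genotype as terms, Benjamini-Hochberg adjusted p under 0.05 over all genes, R 4.3.3). DESeq2 1.42.0 was an alternative. The procedure was tested on simulated data. Replicate was a term because each replicate had its own kit, and deviations of same-numbered libraries correlated at 0.638 to 0.815. With 2 pools per genotype and replicate as a term, p-values rest on how far the genotype difference varied between the replicates. edgeR shares this spread over genes, and the p-values cover these pools only. Values in every library are given for the 10 most abundant members in cardiac muscle, members called in any comparison, members past 0.5 in both replicates in cardiac muscle, and the 3 highest and 3 lowest in non-muscle types. For other pathway genes those called are named. *Nppb*, a cardiac muscle marker and no member, was named after its values were seen, as were some members. The members and lists were chosen with earlier results of these data known.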

Additional observations from a re-analysis of the deposited data

Results flagged for a closer look

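The genotype difference (log2 fold change of cKO over cHet) differed between types, by edgeR's test of the difference itself, for the members below. For cardiac muscle less aSHF it was 0.39 for *Tnni1*, 0.39 for *Ttn* and -0.46 for *Myl4*, calls that DESeq2 and cells thinned to 5000 UMIs did not give, and *Myl4* turned to 0.80 with cells of at least 1000 genes. For cardiac muscle less pSHF, a test added after the pSHF calls were seen, it was -0.73 for *Tnnt2*, 0.29 for *Tnni1*, -1.09 for *Tnnc1*, -1.18 for *Myh6*, -0.74 for *Myl4*, -0.32 for *Myl7*, -0.56 for *Actc1*, -0.54 for *Acta2*, -0.63 for *Ttn* and -0.65 for *Ryr2*. For pSHF less aSHF, added in the same way, it was 0.67 for *Tnnt2*, 0.56 for *Acta2*, 0.95 for *Ttn* and 0.64 for *Ryr2*. Cells of these types came from the same 4 libraries.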

How the results depend on the processing

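Counts of members called are given here in the order cardiac muscle, aSHF, pSHF, BrM, all cells and the interaction of cardiac muscle with aSHF, where the values in the report were 2, 2, 10, 1, 0 and 3. Without the replicate block they were 0 throughout, and no gene was called, as the difference between replicates then enters the spread. DESeq2 called 1, 0, 4, 0, 2 and 0. Library totals without TMM gave 1 in cardiac muscle and 5 in the interaction. No filter on low counts gave 4 in cardiac muscle, aSHF, BrM and all cells. Members kept in the clustering gave 1 in cardiac muscle and 1 in aSHF. With at least 1000 genes per cell, which gave 649 cardiac muscle cells with a median of 3802 UMIs in cHet Rep1 and 36 to 159 cells in the other libraries, the counts were 0, 8, 10, 3, 0 and 11, and the median log2 fold change in cardiac muscle was 0.35. Doublets kept gave 1 in cardiac muscle, 4 in pSHF and 2 in BrM. Cells thinned to 5000 UMIs gave 1, 0, 6, 2, 0 and 0. Leaving out 1 library in turn also dropped the replicate term and left the replicates unbalanced by construction. For these fits only the sizes of values are given. Values that turned were *Myl4* in aSHF (-0.37) and in the interaction (0.80) with at least 1000 genes per cell. Leaving out 1 library in turn, *Myl2* in cardiac muscle ranged from -0.59 (without cKO replicate 1) to 2.12, *Myl7* in pSHF from -0.28 (without cKO replicate 1) to 1.25, *Tpm2* in BrM from -1.04 to 0.38 (without cHet replicate 1, and 0.15 without cKO replicate 2), *Ttn* in aSHF from -1.79 to 0.91 (without cHet replicate 2, and 0.36 without cKO replicate 1) and *Ttn* in pSHF from -0.17 (without cKO replicate 2, and -0.08 without cHet replicate 1) to 1.93. With a minimum of 2 of the 10 genes in place of 3, chosen after the shares were seen, the share of muscle-bearing pSHF cells in Rep1 turned from 2.37 to -2.92 percentage points (cKO minus cHet), and with a minimum of 4 genes that of aSHF in Rep1 turned from -1.07 to 0.735. Apart from the construction named, the cause was not tested. Cardiac muscle in cKO Rep1 rested on 40 cells, and members under 10 CPM there rested on few UMIs, so their values carry wide errors.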
